A study of Mus musculus with 12 samples.

Results

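Slc2a4, the gene of glucose transporter 4 (GLUT4), and 8 genes of insulin signalling were followed in eWAT, the white fat depot beside the epididymis. The 9 genes were Insr, Irs1, Irs2, Pik3r1, Akt2, Tbc1d4, Trip10, Slc2a4 and Foxo1, found once each among 25232 listed genes. They were chosen by symbol for their role, with earlier results of these data known. RNA of whole eWAT from C57BL/6 mice was sequenced in 12 libraries, 3 in each of 4 groups. Genotypes were wild type (WT) and TET KO (TKO), an ablation that the title of the series places in adipocytes, and each was fed either normal diet (ND) or high-fat diet (HFD). TET enzymes oxidise 5-methylcytosine in DNA. The groups are written ND_WT, ND_TKO, HFD_WT and HFD_TKO. The sources used here do not give the alleles, the Cre driver, the age of the mice or the length of feeding. Each library counts as a biological replicate per the labels, and the sequenced pad held every cell type of the tissue and not adipocytes alone.

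Insulin binds a receptor tyrosine kinase, encoded by Insr, which phosphorylates the substrates IRS1 and IRS2. These recruit phosphoinositide 3-kinase (PI3K) through its regulatory subunit p85 alpha (Pik3r1), and the lipid it makes brings the kinase AKT2 to the membrane. AKT2 phosphorylates AS160 (Tbc1d4), which otherwise holds vesicles with GLUT4 inside the cell, and FOXO1, which then leaves the nucleus. CIP4 (Trip10) binds the small GTPase TC10 in a second branch that acts on the same vesicles. In fat and muscle GLUT4 is the transporter that moves to the cell surface after insulin, so that glucose uptake depends both on how much of it a cell makes and on where it sits. RNA levels of whole tissue bear on the first only in part, as they measure neither protein nor the level per cell. They say nothing of phosphorylation or traffic.

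The starts of the substrate genes Irs1 and Irs2 are shown first, because the means of these sister genes ran in different orders over the 4 groups. HFD_WT was lowest for both. Of the steps between neighbouring groups only the last was called for Irs1 and none for Irs2. Each line holds the 250 bases before the transcript start in RefSeq (GRCm38.p6), 5′ to 3′ on the gene's own strand, with the motifs CACGTG (an E-box) and TGTTTTG (the insulin response sequence known from FoxO-bound promoters, CAAAACA on the other strand) in capitals. The windows are chr1:82291440-82291689 (Irs1) and chr8:11008930-11009179 (Irs2), both on the minus strand.
Irs1: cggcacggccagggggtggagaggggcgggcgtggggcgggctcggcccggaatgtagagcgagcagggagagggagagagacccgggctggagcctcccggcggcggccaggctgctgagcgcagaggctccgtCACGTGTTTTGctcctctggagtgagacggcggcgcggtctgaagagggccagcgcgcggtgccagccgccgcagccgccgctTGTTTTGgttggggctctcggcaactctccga
Irs2: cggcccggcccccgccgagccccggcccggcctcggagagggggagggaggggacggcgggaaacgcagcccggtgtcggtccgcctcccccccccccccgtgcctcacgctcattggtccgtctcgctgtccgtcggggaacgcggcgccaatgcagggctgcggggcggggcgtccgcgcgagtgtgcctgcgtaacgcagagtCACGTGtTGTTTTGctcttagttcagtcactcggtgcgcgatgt
In Irs1 the E-box lay 115 to 110 bases before the start and shared letters with an insulin response sequence, 111 to 105, and another of these lay 32 to 26 bases before the start. In Irs2 the E-box lay 44 to 39 bases before the start and the insulin response sequence 37 to 31. The bases just after these RefSeq starts were found in no GENCODE M21 transcript of either gene. The distances therefore hold for the RefSeq starts only. Searched on both strands of all 32851 promoter windows of this length, CACGTG was present in 6.02%, TGTTTTG or CAAAACA in 5.56%, and both kinds in 0.295% (97 windows). The E-box was chosen for the search after these sequences had been seen. The longest runs that both windows held were 10 bases, gtcacgtgtt and tgttttgctc. The FoxO core, whose letters are GTAAACA and which reads as TGTTTAC when searched for on the other strand, was present in 3.17% of all windows and in none of the 11 windows of the 7 genes that matched the table. CpG dinucleotides, the sites of DNA methylation, numbered 28 in the Irs1 window and 34 in the Irs2 window, against a median of 6 over all windows (quartiles 2 and 16). Pik3r1 had 30 and 6 in its 2 windows, Foxo1 20, Trip10 15, Tbc1d4 9, and Akt2 between 0 and 10 in 4 windows. These are letters in a window and not measured binding or methylation.

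Depth lay between 20973140 and 25606629 reads per library, and each of the 9 genes had at least 281 reads in every library. None of Tet1 (log2 change 0.97 on ND and 0.76 on HFD), Tet2 (-0.06 and -0.47) and Tet3 (0.22 and -0.18) was called lower in TKO, and reads over a whole gene do not check a deletion of unknown exons in 1 cell type. The summed level of 10 mature adipocyte markers was 36546 to 47116 CPM (reads scaled to a common library total) for ND_WT, 35775 to 41092 for ND_TKO, 15819 to 17173 for HFD_WT and 27145 to 29184 for HFD_TKO. The sum of 10 macrophage markers was 770.0 to 1197, 635 to 927, 5156 to 5979.9 and 1215 to 1381 CPM in the same order. Skeletal muscle, which also makes GLUT4, was low by its 8 markers (at most 49.5 CPM in sum), and the epididymis was low by its 6 markers, whose sum was at most 3.05 CPM in ND_WT, 3.43 in ND_TKO, 0.522 in HFD_WT and 0.462 in HFD_TKO. Of these 6, Adam7 alone passed the filter on low values, and Lcn5 and Rnase9 had no read in any library. ND_WT replicate 3 was the lowest of its group for 7 of the 9 genes and the highest for Foxo1, and HFD_TKO replicate 1 was the lowest of its group for all but Akt2. Results that rest on these 2 libraries are given without them as well.

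Differences are given as log2 changes of CPM + 1 with a standard error (SE), from limma on all 12 libraries, with adjusted p-values called at 0.05 over 15597 tested genes. All 9 genes passed the filter on low values. On HFD, 6 of the 9 rose in TKO against WT: Slc2a4, Irs1, Irs2, Akt2, Tbc1d4 and Foxo1. Over all tested genes 46.7% were called in that comparison, 15.2% higher and 31.6% lower. On ND, Irs2 was higher in TKO and Slc2a4 and Trip10 were lower, against 5.70% of all genes called (2.16% higher, 3.54% lower). In WT mice 7 of the 9 were lower on HFD than on ND, all but Irs2 and Pik3r1, against 58.1% of all genes called and 20.3% lower. TMM scaling, which removes the shift that a few abundant genes give, moved the median of all genes from -0.10 to -0.01 for TKO on HFD and from 0.13 to 0.01 for HFD in WT. With it 7 of the 9 genes were called higher for TKO on HFD, 3 were called for TKO on ND, and all 9 were lower for HFD in WT. Over all genes, TMM scaling gave 21.2% higher and 25.6% lower for TKO on HFD, 3.37% and 2.54% for TKO on ND, and 27.2% lower for HFD in WT. The median of the 9 genes was 0.56 for TKO on HFD, 0.04 for TKO on ND and -0.63 for HFD in WT.

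**Figure D1:**
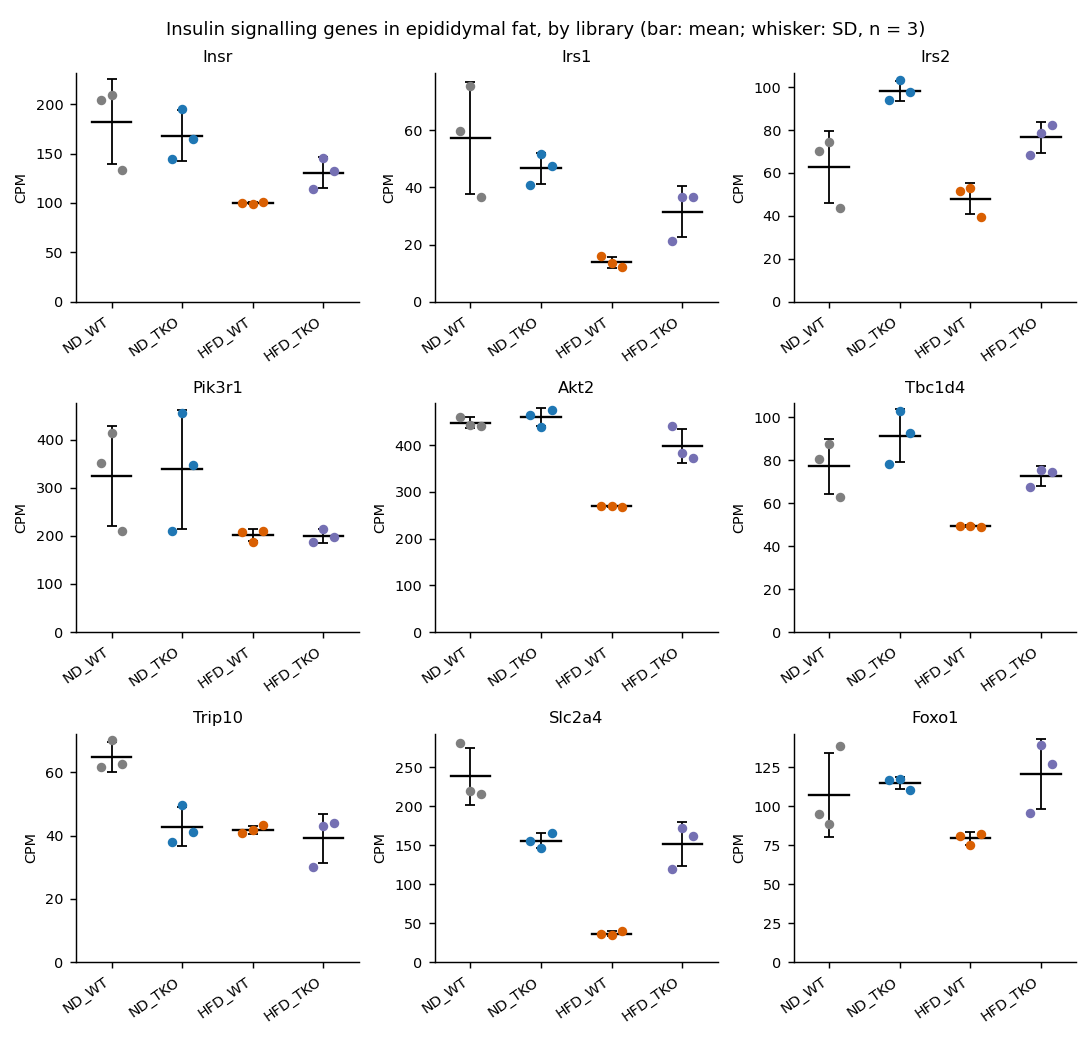
Level of each gene (y axis, CPM) in every library (points) of the 4 groups (x axis), with the group mean (bar) and SD (whisker, n = 3). The HFD_WT points of Slc2a4 and Akt2 lie far below those of the other 3 groups, while for Pik3r1 both HFD groups lie together and ND_WT and ND_TKO each spread widely.

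Slc2a4 (chromosome 11, 69942539 to 69948188, minus strand of mm10) had the largest differences of the 9 genes between WT on ND and HFD and between TKO and WT on HFD. Its level was 280.4, 219.6 and 215 CPM for ND_WT, 155, 146 and 166 for ND_TKO, 35.7, 34.3 and 39.8 for HFD_WT and 119, 172 and 162 for HFD_TKO. Every HFD_WT library was below every library of the other groups, and the ND_TKO and HFD_TKO libraries overlapped, all below ND_WT, with HFD_TKO replicate 1 the lowest of both groups. Group means were 238 ± 36.5, 156 ± 9.92, 36.6 ± 2.84 and 151 ± 28.1 CPM (SD, n = 3), so that HFD_WT kept 15.4% of the ND_WT mean and HFD_TKO 63.3%. In WT mice Slc2a4 fell by 2.66 (SE 0.14, adjusted p = 3.3e-08) on the log2 scale with HFD, and on HFD the TKO level was 4.0-fold the WT level, a log2 change of 2.0 (SE 0.14, adjusted p = 5.1e-07). In TKO the diets differed by -0.06 (95% interval -0.36 to 0.24, adjusted p = 0.79). On ND the level fell by 0.60 (SE 0.14, adjusted p = 0.026) in TKO. That last call ended when only the ND groups were fitted (adjusted p = 0.052) and without ND_WT replicate 1 (-0.48, 0.10) or any ND_TKO library (0.074, 0.075 and 0.060 without replicates 1 to 3). In bulk tissue fewer adipocytes and less RNA per adipocyte cannot be told apart, and the adipocyte marker sum was lowest in the HFD_WT libraries as well.

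The receptor gene Insr (chromosome 8, 3122061 to 3279617, minus strand) stood at 205, 209 and 133 CPM for ND_WT, 145, 195 and 165 for ND_TKO, 99.9, 99.2 and 101 for HFD_WT and 114, 145 and 133 for HFD_TKO. All HFD_WT libraries were lower than all others, and the other 3 groups overlapped. In WT it fell by 0.83 (SE 0.16, adjusted p = 8.8e-04) on HFD. On HFD the TKO libraries lay above the WT libraries, yet the difference missed the threshold at 0.38 (95% interval 0.03 to 0.73, adjusted p = 0.074). It was called with TMM scaling (0.49, adjusted p = 0.018), by edgeR (0.52, 0.015) and DESeq2 (0.52, 0.0035), with the HFD groups alone (0.0093) and without ND_WT replicate 3 (0.012). On ND the difference was -0.10 (95% interval -0.45 to 0.26, adjusted p = 0.79).

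Irs1 and Irs2, the main IRS substrates, differed in their pattern. Irs1 (chromosome 1, 82233101 to 82291416, minus strand) had 59.7, 75.3 and 36.6 CPM for ND_WT, 40.9, 51.7 and 47.6 for ND_TKO, 15.9, 13.5 and 12.2 for HFD_WT and 21.2, 36.8 and 36.5 for HFD_TKO. HFD_WT was below every other library, and within HFD_TKO replicate 1 was the lowest. In WT Irs1 fell by 1.92 (SE 0.25, adjusted p = 4.3e-05) on HFD, to 24.2% of the ND_WT mean. On HFD TKO exceeded WT by 1.10 (SE 0.25, adjusted p = 0.0035), or 2.14-fold, whereas on ND the difference was -0.23 (95% interval -0.78 to 0.31, adjusted p = 0.63). The HFD difference lay between 0.93 and 1.35 over all other settings tried and was called in each.

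Irs2 (chromosome 8, 10984681 to 11008458, minus strand) was instead high in both TKO groups. Its libraries had 70.4, 74.3 and 43.7 CPM for ND_WT, 94.0, 103 and 97.8 for ND_TKO, 51.5, 53.1 and 39.6 for HFD_WT and 68.6, 78.6 and 82.4 for HFD_TKO. On either diet no TKO library overlapped the WT libraries, and means were 98.3 ± 4.69 CPM in ND_TKO against 62.8 ± 16.7 in ND_WT, and 76.5 ± 7.16 in HFD_TKO against 48.1 ± 7.35 in HFD_WT (SD, n = 3). TKO exceeded WT by 0.68 (SE 0.17, adjusted p = 0.045) on ND and by 0.67 (SE 0.17, adjusted p = 0.008) on HFD. The ND call rested on narrow margins. It fell to 0.44 (adjusted p = 0.038) without ND_WT replicate 3, the lowest library, and was lost with no filter on low values (0.071), when only the ND groups were fitted (0.13), without ND_WT replicate 1 (0.068), without each ND_TKO library (0.095, 0.10 and 0.11), without HFD_WT replicate 1 (0.067) or 2 (0.061) and without HFD_TKO replicate 2 (0.061) or 3 (0.062). HFD against ND gave -0.35 (95% interval -0.73 to 0.03, adjusted p = 0.1) in WT and -0.36 (95% interval -0.74 to 0.02, adjusted p = 0.16) in TKO. The WT difference was called with TMM scaling (-0.49, adjusted p = 0.031), by edgeR (-0.54, 0.020), by DESeq2 (-0.54, 0.0083) and without ND_WT replicate 3 (-0.59, 0.0014). The TKO difference was called with those groups alone (0.030) and without ND_WT replicate 3 (0.029).

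Pik3r1 (chromosome 13, 101680563 to 101768217, minus strand), the PI3K subunit that docks on phosphorylated IRS proteins, had lower means on HFD in both genotypes, without a called difference. It stood at 351, 413 and 210.0 CPM for ND_WT, 209.5, 456 and 348 for ND_TKO, 207, 187 and 211 for HFD_WT and 188, 215 and 197 for HFD_TKO. ND_WT replicate 3 and ND_TKO replicate 1 were as low as the HFD libraries. TKO against WT gave 0.04 (95% interval -0.54 to 0.62, adjusted p = 0.95) on ND and -0.01 (95% interval -0.59 to 0.57, adjusted p = 0.98) on HFD, the latter turning to 0.10 with TMM scaling. HFD against ND gave -0.63 (95% interval -1.21 to -0.05, adjusted p = 0.059) in WT and -0.69 (95% interval -1.27 to -0.11, adjusted p = 0.085) in TKO. In WT the lower level on HFD was called with TMM scaling (-0.78, adjusted p = 0.021), by edgeR (-0.85, 0.013) and DESeq2 (-0.85, 0.0015), with these groups alone (0.049), and without ND_WT replicate 3 (-0.92, 0.0061), ND_TKO replicate 1 (0.021) or ND_TKO replicate 2 (0.037). In TKO it was called by edgeR (-0.83, 0.041), by DESeq2 (-0.82, 0.0070) and without ND_WT replicate 3 (0.034) or ND_TKO replicate 1 (-0.99, 0.014).

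Akt2 (chromosome 7, 27591552 to 27640826, plus strand), the AKT isoform most tied to glucose uptake, had the smallest standard error of the 9. Its libraries had 461, 443 and 440.3 CPM for ND_WT, 465, 439 and 475 for ND_TKO, 269.8, 269.9 and 268 for HFD_WT and 440.5, 384 and 372 for HFD_TKO. The HFD_WT libraries lay within a narrow range and below all the rest, and the ND groups overlapped. In WT Akt2 fell by 0.73 (SE 0.07, adjusted p = 5.0e-06) on HFD, to 60.1% of the ND_WT mean, and on HFD TKO exceeded WT by 0.56 (SE 0.07, adjusted p = 6.6e-05). On ND TKO and WT differed by 0.04 (95% interval -0.12 to 0.20, adjusted p = 0.83), an interval that leaves out changes of the size seen on HFD.

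Of the genes that act on GLUT4 vesicles, Tbc1d4 (chromosome 14, 101442360 to 101609191, minus strand) followed Akt2. It stood at 80.7, 87.5 and 62.9 CPM for ND_WT, 78.4, 103 and 92.5 for ND_TKO, 49.4, 49.5 and 48.6 for HFD_WT and 67.3, 75.6 and 74.6 for HFD_TKO, with HFD_WT below every other library. In WT it fell by 0.62 (SE 0.12, adjusted p = 8.7e-04) on HFD, and on HFD TKO exceeded WT by 0.55 (SE 0.12, adjusted p = 0.0028). The ND difference was 0.25 (95% interval -0.02 to 0.51, adjusted p = 0.25). Trip10 (chromosome 17, 57249455 to 57263665, plus strand) differed from Tbc1d4: it was highest in ND_WT, and the other 3 groups lay together. Its libraries had 61.6, 70.2 and 62.6 CPM for ND_WT, 37.9, 49.7 and 41.1 for ND_TKO, 40.8, 41.6 and 43.2 for HFD_WT and 30.2, 43.1 and 44.1 for HFD_TKO. On ND it fell by 0.59 (SE 0.14, adjusted p = 0.027) in TKO, in WT it fell by 0.62 (SE 0.14, adjusted p = 0.0022) on HFD, and on HFD the genotypes differed by -0.11 (95% interval -0.41 to 0.18, adjusted p = 0.53). The ND call ended with only the ND groups in the fit (adjusted p = 0.052) and without ND_WT replicate 1 (0.071) or 2 (0.095) or ND_TKO replicate 1 (0.10) or 3 (0.093).

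Foxo1 (chromosome 3, 52268336 to 52353221, plus strand), the transcription factor that insulin holds out of the nucleus, had 94.8, 88.6 and 138 CPM for ND_WT, 117, 117 and 111 for ND_TKO, 81.0, 74.9 and 82.5 for HFD_WT and 95.7, 139 and 127 for HFD_TKO. HFD_WT was lowest, and ND_WT replicate 3 was far above the other ND_WT libraries. On HFD TKO exceeded WT by 0.58 (SE 0.16, adjusted p = 0.011), called in every other setting with changes of 0.47 to 0.74. On ND the difference was 0.12 (95% interval -0.22 to 0.47, adjusted p = 0.7). The lower level on HFD in WT, -0.40 (SE 0.16, adjusted p = 0.048), was less secure. It dropped to -0.20 (adjusted p = 0.19) without ND_WT replicate 3. It was also lost with no filter (0.070), with only these groups (0.067), without any 1 of the ND_TKO or HFD_WT libraries (adjusted p between 0.060 and 0.13) and without HFD_TKO replicate 3 (0.059).

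**Figure D2:**
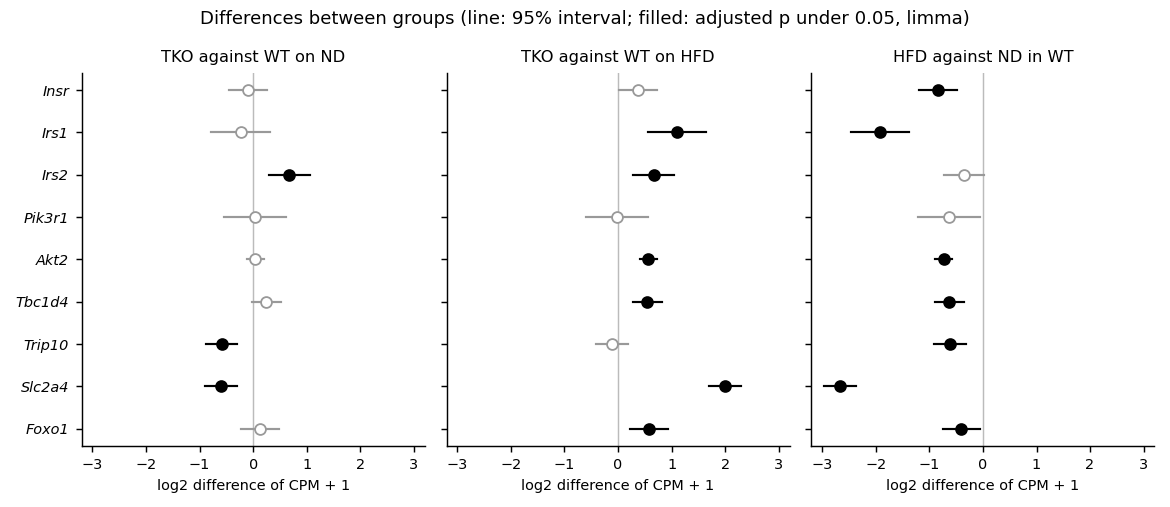
Difference of each gene (y axis) in 3 comparisons (panels), as a log2 difference of CPM + 1 (x axis) with its 95% interval (line). Filled points passed an adjusted p of 0.05 by limma: 3 on ND, 6 for TKO on HFD and 7 for HFD in WT, with Slc2a4 the farthest from 0 in both HFD panels.

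The TKO effect differed between the diets for 3 of the 9 genes by an interaction term, the change in TKO on HFD less the change in TKO on ND. The interaction was 2.60 (SE 0.19, adjusted p = 7.8e-06) for Slc2a4, 1.33 (SE 0.35, adjusted p = 0.015) for Irs1 and 0.52 (SE 0.10, adjusted p = 0.0029) for Akt2, and 28.7% of all genes were called (9.94% higher). Slc2a4 thus had opposite called changes on the diets, of which the ND call was lost in the settings given above. For Irs2 the interaction was -0.01 (95% interval -0.55 to 0.53, adjusted p = 0.99). For Trip10 it was 0.48 (95% interval 0.06 to 0.90, adjusted p = 0.086) and was called with TMM scaling (adjusted p = 0.033), by edgeR (0.024) and DESeq2 (0.0079), with replicate number as a block (0.043) and without ND_TKO replicate 2 (0.045) or HFD_TKO replicate 1 (0.65, 0.0062). For Insr, 0.48 (adjusted p = 0.14), it was called by DESeq2 (0.034) and without ND_WT replicate 3 (0.69, 0.0073), and for Foxo1, 0.46 (adjusted p = 0.16), by DESeq2 (0.035) and without HFD_TKO replicate 1 (0.043). For Tbc1d4, 0.30 (adjusted p = 0.22), it was called without ND_WT replicate 3 (0.030).

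Set against WT mice on ND, HFD_TKO was lower in 4 of the 9 genes, with 35.1% of all genes called. The log2 change was -0.66 (SE 0.14, adjusted p = 0.0038) for Slc2a4 and -0.73 (SE 0.14, adjusted p = 0.0022) for Trip10, both without overlap of the libraries. It was -0.82 (SE 0.25, adjusted p = 0.025) for Irs1 and -0.45 (SE 0.16, adjusted p = 0.047) for Insr. The Irs1 call was lost with only these groups fitted (adjusted p = 0.084) and without ND_WT replicate 1 (0.080), ND_WT replicate 2 (0.10) or HFD_TKO replicate 1 (0.097). The Insr call was lost in 10 other settings, among them no filter (0.070) and each HFD_WT library left out (0.060 to 0.064). Tbc1d4, at -0.08 (95% interval -0.34 to 0.19, adjusted p = 0.67), and Foxo1, at 0.18 (95% interval -0.17 to 0.53, adjusted p = 0.41), were not called. Foxo1 was called higher without ND_WT replicate 3 (0.38, adjusted p = 0.035) and Akt2 lower without HFD_TKO replicate 1 (-0.25, 0.019). Pik3r1, at -0.64 (adjusted p = 0.079), was called lower by edgeR (-0.73, 0.042), by DESeq2 (-0.73, 0.012) and without ND_WT replicate 3 (-0.93, 0.0096) or ND_TKO replicate 1 (0.032). HFD_WT was lower than ND_TKO in 8 of the 9, all but Trip10, which differed by -0.02 (95% interval -0.32 to 0.27, adjusted p = 0.89), with 57.7% of all genes called and 17.2% lower. Among these, the call of Pik3r1, -0.67 (adjusted p = 0.046), was lost in 10 other settings, reaching -0.42 (0.19) without ND_TKO replicate 2.

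Within TKO the diets gave no called difference in any of the 9 genes by limma, against 22.1% of all genes called. At an unadjusted p under 0.05, 5 of the 9 were lower on HFD (Insr, Irs1, Pik3r1, Akt2 and Tbc1d4), against 10.7% of all genes lower at that threshold. DESeq2 called those 5, with 21.6% of all genes called. Pik3r1 and Tbc1d4 were called by edgeR, and Akt2 and Tbc1d4 by limma with TMM scaling, each with 18.4% of all genes called. Without ND_WT replicate 3, 6 were called, Irs2 being the sixth, with 27.6% of all genes called. A missed threshold does not show that the diets gave equal levels.

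The groups were then ordered by their mean. Insr and Irs1 ran from ND_WT through ND_TKO and HFD_TKO to HFD_WT, and of the neighbouring steps the last one was called for Irs1 (adjusted p = 0.0035) and none for Insr (0.79, 0.14 and 0.074). Akt2 and Tbc1d4 ran from ND_TKO through ND_WT and HFD_TKO to HFD_WT, with the last step called for both. Slc2a4 ran from ND_WT through ND_TKO and HFD_TKO to HFD_WT, and ND_TKO and HFD_TKO did not differ beyond their spread (0.79). Irs2 ran from ND_TKO through HFD_TKO and ND_WT to HFD_WT with no neighbouring step called. Trip10 was highest in ND_WT, and ND_TKO, HFD_WT and HFD_TKO did not differ beyond their spread (0.89 and 0.53). Pik3r1 ran from ND_TKO through ND_WT and HFD_WT to HFD_TKO with no step called (0.95, 0.059 and 0.98), and Foxo1 from HFD_TKO through ND_TKO and ND_WT to HFD_WT with the last step called (0.048). Over all tested genes the libraries of TKO and WT did not overlap for 23.8% on ND and 59.6% on HFD, and those of HFD and ND in WT for 65.4%. Of the 9 genes 3 did not overlap on ND, 7 on HFD (Insr with the 6 that were called) and 7 for diet in WT.

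Levels of different genes can be set side by side only per transcript length. In ND_WT the order in CPM per kilobase was Akt2 (153), Slc2a4 (94.4), Pik3r1 (45.7), Trip10 (30.3), Insr (19.5), Foxo1 (12.4), Tbc1d4 (11.9), Irs2 (9.93) and Irs1 (6.25). In HFD_WT Slc2a4 (14.5) came below Pik3r1 (28.3) and Trip10 (19.6), and Irs1 fell to 1.51. Reads of overlapping genes cannot be told apart where strand was not used in counting, which was not given: Gm16180 and the pseudogene Vmn2r-ps88 overlap Insr, Gm20402 Foxo1, Gm9747 Irs1 and 9530052E02Rik Irs2, each on the opposite strand. On the same strand, where counting by strand would not separate them, Gm36638 overlaps Pik3r1, Gm34417 Tbc1d4 and Gm38034 Foxo1.

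Ratios per transcript length were taken for 7 pairs of related genes, as a description with no test. Slc2a4 to Slc2a1, the transporter GLUT1 that most cells carry at the surface without insulin, was 19.8 ± 4.14 for ND_WT, 13.0 ± 0.689 for ND_TKO, 2.52 ± 0.202 for HFD_WT and 15.7 ± 2.53 for HFD_TKO (mean ± SD, n = 3). Akt2 to Akt1 was 4.16 ± 0.277 for ND_WT, 4.47 ± 0.405 for ND_TKO, 1.59 ± 0.0310 for HFD_WT and 3.72 ± 0.666 for HFD_TKO (mean ± SD, n = 3). Tbc1d4 to its paralogue Tbc1d1 was 4.17 ± 0.953 for ND_WT, 4.24 ± 0.834 for ND_TKO, 0.995 ± 0.111 for HFD_WT and 3.10 ± 0.432 for HFD_TKO (mean ± SD, n = 3). Foxo1 to Foxo3 was 3.69 ± 0.749 for ND_WT, 3.76 ± 0.192 for ND_TKO, 1.255 ± 0.114 for HFD_WT and 3.49 ± 0.299 for HFD_TKO (mean ± SD, n = 3). Insr to Igf1r, the receptor of insulin-like growth factor 1, was 10.6 ± 1.496 for ND_WT, 12.6 ± 0.619 for ND_TKO, 6.69 ± 0.614 for HFD_WT and 10.6 ± 2.14 for HFD_TKO (mean ± SD, n = 3). In these 5 ratios HFD_WT was below every library of the other groups. Pik3r1 to Pik3r2, which encodes the p85 beta subunit, was instead lowest in HFD_TKO, at 3.63 ± 1.31 for ND_WT, 4.89 ± 2.10 for ND_TKO, 2.27 ± 0.156 for HFD_WT and 2.09 ± 0.110 for HFD_TKO (mean ± SD, n = 3), and the HFD groups overlapped. In the first 3 pairs the related gene moved too: on HFD the log2 change in TKO was -0.56 (adjusted p = 2.4e-04) for Slc2a1, -0.65 (adjusted p = 2.0e-05) for Akt1 and -1.05 (adjusted p = 5.4e-05) for Tbc1d1. Foxo3 was called lower in TKO on HFD as well, and higher on HFD in WT, so that ratio does not follow Foxo1 alone. The ratio Irs2 to Irs1 behaved otherwise. The libraries gave 1.71, 1.43 and 1.73 for ND_WT, 3.32, 2.89 and 2.97 for ND_TKO, 4.70, 5.70 and 4.71 for HFD_WT and 4.67, 3.09 and 3.27 for HFD_TKO. All 3 other groups were above ND_WT, and HFD_WT was the highest without overlap, with HFD_TKO replicate 1 just under it.

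**Figure D3:**
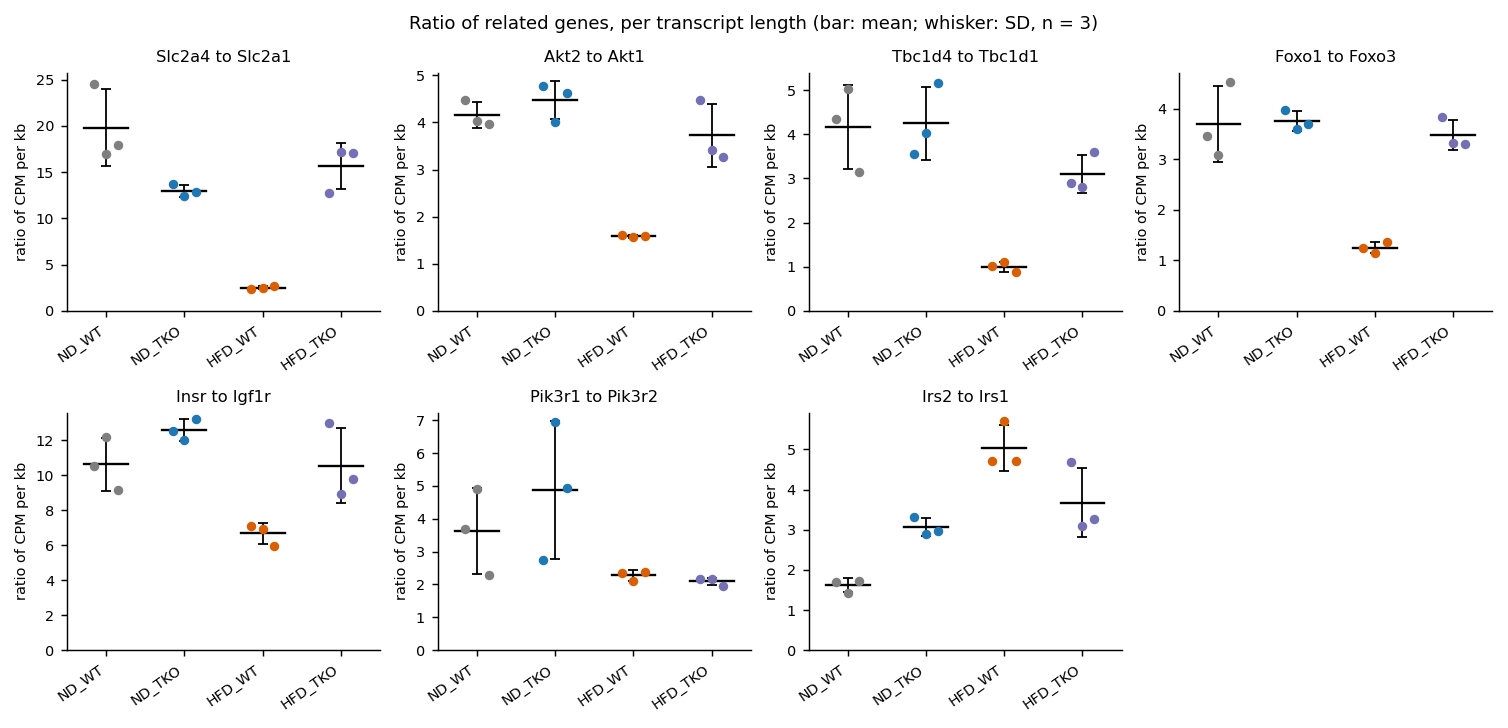
Ratio of CPM per kilobase of each gene pair (y axis) in every library (points) of the 4 groups (x axis), with mean (bar) and SD (whisker, n = 3). HFD_WT is lowest in the top row (Slc2a4 to Slc2a1, Akt2 to Akt1, Tbc1d4 to Tbc1d1, Foxo1 to Foxo3) and for Insr to Igf1r, overlaps HFD_TKO for Pik3r1 to Pik3r2, and is highest for Irs2 to Irs1.

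Levels were also set against Adipoq (adiponectin) and Plin1 (perilipin, the coat of the fat droplet), genes read almost only in adipocytes, in the same library; this scale was chosen after the data had been seen. Adipoq stood at 4856 ± 365, 6118 ± 407, 1429 ± 76.0 and 3948 ± 828 CPM in ND_WT, ND_TKO, HFD_WT and HFD_TKO. Per 1000 CPM of Adipoq, Slc2a4 was 49.1 ± 6.42, 25.5 ± 0.538, 25.6 ± 0.828 and 38.4 ± 2.47 in these groups (SD, n = 3). On this scale ND_TKO and HFD_WT lay together, HFD_TKO was above both, and ND_WT was above all. Per 1000 CPM of Plin1 it was 183 ± 15.9, 120.1 ± 2.28, 64.9 ± 5.42 and 145 ± 18.01. With either gene every HFD_TKO library was above every HFD_WT library for Slc2a4. For Irs1 the HFD groups overlapped with either gene, and the order of their means differed. Per 1000 CPM of Adipoq it was 9.70 ± 1.49 in HFD_WT and 7.89 ± 0.765 in HFD_TKO. Per 1000 CPM of Plin1 it was 24.4 ± 2.67 in HFD_WT and 30.1 ± 6.82 in HFD_TKO. Per Adipoq the other 7 genes were lower in HFD_TKO than in HFD_WT without overlap, for example Akt2 at 106 ± 35.5 against 189 ± 10.8 and Irs2 at 19.8 ± 2.66 against 33.9 ± 6.68. Per Plin1 the HFD groups overlapped for Irs2 and Akt2, and Insr, Pik3r1, Tbc1d4, Trip10 and Foxo1 were lower in HFD_TKO. The macrophage marker sum was also lower in HFD_TKO than in HFD_WT, and the part of each cell type in the totals was not tested.

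**Figure D4:**
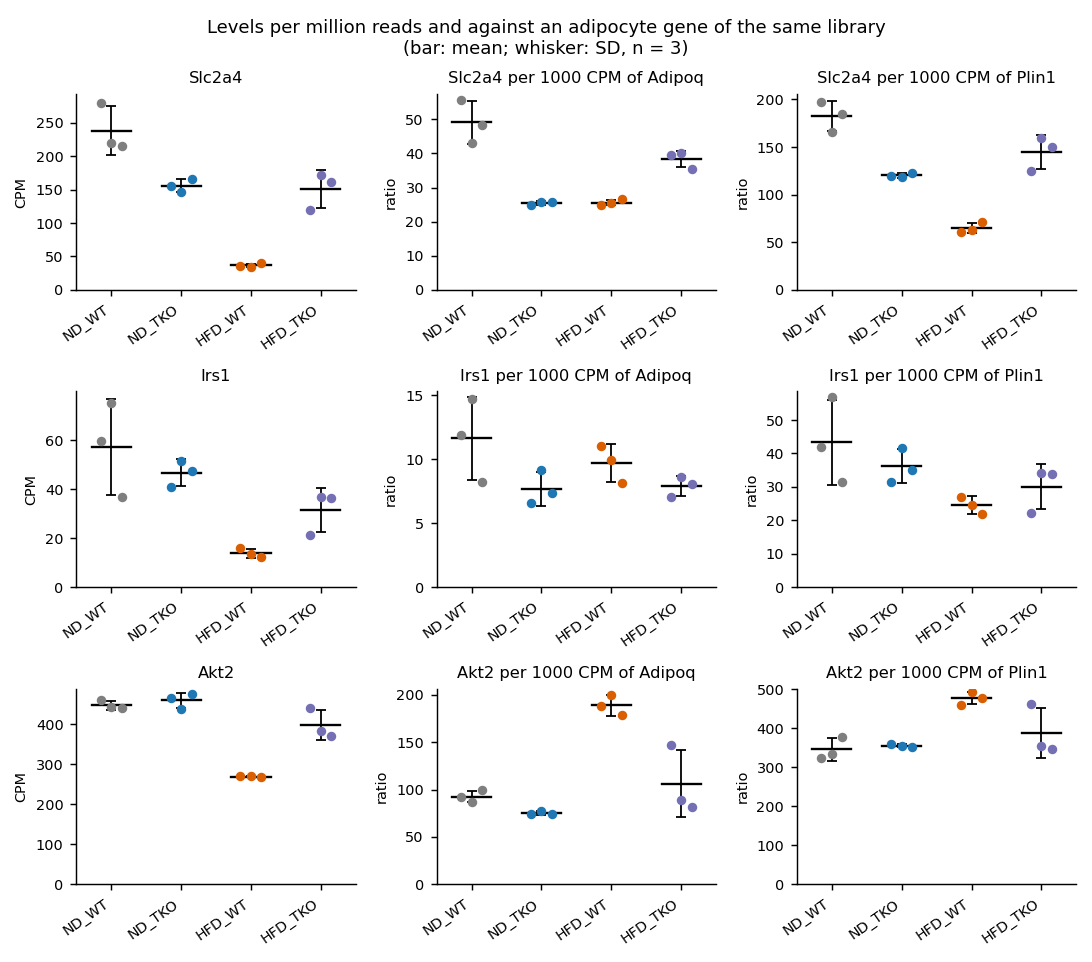
Slc2a4, Irs1 and Akt2 (rows) in CPM and per 1000 CPM of Adipoq or Plin1 (columns, y axis), in every library (points) of the 4 groups (x axis), with mean (bar) and SD (whisker, n = 3). HFD_TKO is above HFD_WT on all 3 scales for Slc2a4, and in CPM but not against Adipoq for Irs1 and Akt2.

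The rest of the pathway was read from 7 lists of 132 genes, of which 130 were tested and none is among the 9. For TKO on HFD, 32 were higher and 46 lower (60% called), which TMM scaling turned to 44 and 34, and leaving out HFD_TKO replicate 1 to 41 and 42. Over all genes 46.7% were called there, 15.2% higher and 31.6% lower, or 21.2% and 25.6% with TMM scaling. Without HFD_TKO replicate 1 these shares were 15.5% and 28%. The lists' counts on HFD stand against these shares. The split between higher and lower thus depends on the scaling, and the median of the 130 was -0.02, against -0.10 for all genes. On ND 11 of the 130 were called (8.46%), 10 of them lower, against 5.70% of all genes. TMM scaling gave 3 higher and 6 lower, against 3.37% and 2.54% of all genes. Single libraries moved the ND count both ways: it was 4, all lower, without ND_WT replicate 1 or ND_TKO replicate 3, 7, all lower, without HFD_WT replicate 1, 3 higher and 14 lower without HFD_TKO replicate 1, and 6 and 17 without ND_WT replicate 3. With only the ND groups fitted 1 was higher and 4 lower (1.80% of all genes called), and by DESeq2 8 and 13 (8.94%). By list, leaving out ND_WT replicate 3 took the ND count from 1 to 6 for FoxO factors and targets, from 2 to 4 for PI3K, Akt and mTOR genes and for insulin outputs, and from 1 to 2 for the brakes. The share of all genes called rose from 5.70% to 11.9% in the same step.

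Regulators of Slc2a4 transcription were the list with the highest median for TKO on HFD (0.43), with 10 higher and 3 lower of 14, and 10 and 2 with TMM scaling. Klf15, a zinc finger factor known to raise Slc2a4, stood at 55.8 ± 7.54 CPM in HFD_TKO against 17.8 ± 0.936 in HFD_WT and 74.7 ± 6.12 in ND_WT (SD, n = 3), a TKO change on HFD of 1.58 (adjusted p = 4.7e-07). Cebpa, an adipocyte factor, rose by 0.72 (adjusted p = 2.5e-04) and Pparg, the master factor of fat cells, by 0.46 (adjusted p = 0.0037). The 3 that fell were the MEF2 factors, among them Mef2c at -1.70 (adjusted p = 1.2e-06) and Mef2a at -0.63 (adjusted p = 3.7e-04). Mef2c is also read in macrophages. Of the 10 mature adipocyte markers 8 were higher and none lower in the same comparison, with a median of 0.92, and of the 10 macrophage markers 1 was higher and 9 lower, with a median of -2.22. The part of either in this list was not tested. On ND the gene called in this list by limma was Hdac5, a deacetylase, at -0.43 (adjusted p = 0.043), a call lost with TMM scaling (0.064), by edgeR (0.065) and without any 1 of the ND or HFD_WT libraries (0.053 to 0.13). Without HFD_TKO replicate 1 the ND count was 1 higher (Nr1h3) and 3 lower (Hdac5, Ebf1 and Thra), genes named here after their values were seen. In that setting 8.3% of all genes were called on ND, against 5.7% with all libraries.

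Among adaptors beside the receptor, 4 rose and 5 fell of 17 for TKO on HFD (6 and 5 with TMM scaling). Irs3, a substrate gene active in mouse fat, rose the most, by 1.36 (adjusted p = 5.3e-05), from 18.04 ± 2.71 to 47.5 ± 2.09 CPM. Rhoq, which encodes TC10, the partner of CIP4, rose by 0.49 (adjusted p = 0.0013). Enpp1, a membrane protein that blocks the receptor, fell by 1.78 (adjusted p = 2.5e-06), the most of the list. On ND the adaptor gene Shc1 was lower, with a change of -0.43 (adjusted p = 0.0035), a call lost with only the ND groups (0.051).

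Of 20 PI3K, Akt and mTOR genes, 4 rose and 8 fell for TKO on HFD, and 6 and 5 with TMM scaling. Eif4ebp1, a translation repressor that mTOR inactivates, rose by 1.65 (adjusted p = 4.3e-07). Deptor, an mTOR inhibitor, had a TKO change of -1.70 (adjusted p = 2.4e-04) on ND and -2.25 (adjusted p = 9.9e-07) on HFD, with 142 ± 32.4 CPM for ND_WT, 42.9 ± 9.83 for ND_TKO, 253 ± 15.1 for HFD_WT and 52.4 ± 3.53 for HFD_TKO (SD, n = 3). The catalytic PI3K subunit gene Pik3cb fell by 0.69 (adjusted p = 0.0071) on HFD, and on ND it was called without ND_WT replicate 3 (-0.76, 0.0038). Pik3ca differed by 0.01 (adjusted p = 0.94) on HFD and Pdpk1, the kinase upstream of AKT, by 0.17 (adjusted p = 0.26). Pdpk1 was called with TMM scaling (0.28, adjusted p = 0.043), by edgeR (0.030) and DESeq2 (0.018) and without HFD_TKO replicate 1 (0.034).

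Among 21 brakes on insulin signalling, 2 rose and 8 fell for TKO on HFD (5 and 8 with TMM scaling), against 15.2% of all genes higher and 31.6% lower. Their median was -0.28, against -0.10 for all genes. Ptpn1, the phosphatase PTP1B that acts on the receptor, fell by 1.03 (adjusted p = 4.2e-06), from 97.3 ± 2.43 to 47.0 ± 2.09 CPM. On ND it was called without ND_WT replicate 3 (-0.36, 0.031). Socs3, a cytokine-induced inhibitor, fell by 1.86 (adjusted p = 0.001), from 44.3 ± 20.9 to 10.99 ± 4.62. Grb14, an adaptor that inhibits the receptor kinase, was lower in TKO on both diets, with changes of -1.33 (adjusted p = 0.0024) on ND and -0.85 (adjusted p = 0.0032) on HFD. Its relative Grb10 rose on HFD by 0.49 (adjusted p = 5.1e-04), as did the receptor phosphatase gene Ptprf by 0.69 (adjusted p = 0.0025). The macrophage marker sum was lower in HFD_TKO than in HFD_WT too, and its part in these differences was not tested.

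Of 30 genes of GLUT4 vesicle traffic, 4 rose and 15 fell for TKO on HFD, and 7 rose and 7 fell with TMM scaling, so that the list's balance followed the scaling. Sort1, the sortilin of GLUT4 vesicles, rose by 0.80 (adjusted p = 8.4e-05) and the motor gene Myo1c by 1.06 (adjusted p = 6.4e-06). Vamp2, the vesicle SNARE, fell in TKO on ND, with a change of -0.38 (adjusted p = 0.025), a call lost with only the ND groups (0.061) and without ND_WT replicate 1 (0.098) or 2 (0.072) or ND_TKO replicate 1 (0.090) or 3 (0.086). On HFD it differed by 0.19 (adjusted p = 0.087), and was called higher with TMM scaling (0.31, adjusted p = 0.0031), by edgeR (0.34, 0.0022), by DESeq2 (0.33, 3.8e-05) and without HFD_TKO replicate 1 (0.29, 0.0091). Its partner at the membrane, Stx4a, was lower on both diets, with changes of -0.26 (adjusted p = 0.044) on ND and -0.25 (adjusted p = 0.011) on HFD. With TMM scaling neither was called (-0.20 and -0.13), and the ND call was also lost without any 1 of several libraries (0.11 to 0.14 without ND_WT replicate 1 or 2 or ND_TKO replicate 1 or 3). Rab10, the GTPase that AS160 acts on in fat cells, differed by 0.05 (adjusted p = 0.56) on HFD, and was called with TMM scaling (0.16, 0.043), by edgeR (0.18, 0.031) and by DESeq2 (0.18, 0.0037). Lnpep, the aminopeptidase that travels with GLUT4, differed by 0.13 (adjusted p = 0.61), and was called without HFD_TKO replicate 1 (0.39, 0.026).

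Of 14 insulin outputs and other hexose transporters 6 rose and 3 fell for TKO on HFD, also with TMM scaling. Pde3b, the phosphodiesterase through which insulin restrains lipolysis, rose by 1.15 (adjusted p = 4.9e-05), glycogen synthase Gys1 by 0.87 (adjusted p = 8.4e-04) and hexokinase Hk2 by 0.62 (adjusted p = 6.5e-05), while Hk1 fell by 0.73 (adjusted p = 1.6e-04). Slc2a12, another insulin-sensitive transporter of fat and muscle, was higher in TKO on ND by 0.61 (adjusted p = 0.035) and on HFD by 1.33 (adjusted p = 2.0e-05). The ND call was lost in several settings, among them only the ND groups (0.14) and leaving out ND_WT replicate 2 (0.11), and the HFD change was 0.77 with a pseudocount of 5. Slc2a13 dropped by 0.61 (adjusted p = 0.014) on ND, a call lost without ND_WT replicate 1 (0.067) or ND_TKO replicate 1 (0.055) or 3 (0.052). Of 14 FoxO factors and genes known as FoxO targets 2 rose and 4 fell on HFD (4 and 4 with TMM scaling). Foxo3 fell by 0.83 (adjusted p = 6.9e-04), against the rise of Foxo1, and Fbxo32, a ubiquitin ligase gene, had the largest decrease of the list, -1.32 (adjusted p = 1.3e-05). Pck1, the enzyme that makes glycerol backbone for fat in adipocytes, had opposite called changes on the diets, with -1.09 (adjusted p = 0.0035) on ND and 1.13 (adjusted p = 1.7e-04) on HFD, while in WT it fell by 3.66 (adjusted p = 1.8e-08) on HFD.

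**Figure D5:**
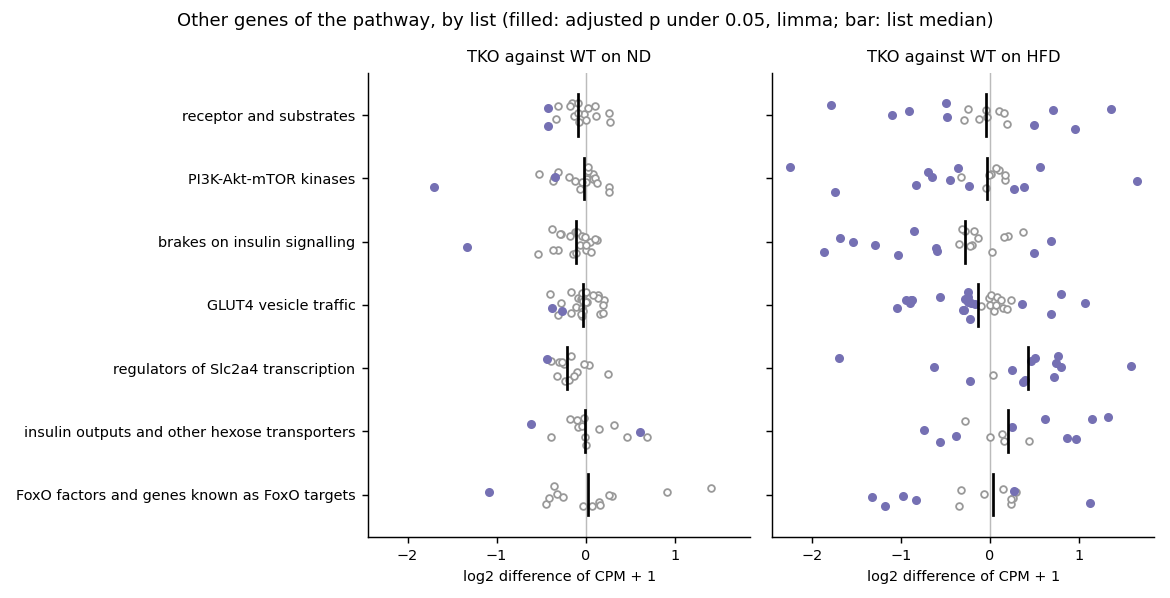
Difference between TKO and WT on ND (left) and HFD (right) for every gene (points) of the 7 lists (y axis), as a log2 difference of CPM + 1 (x axis), with the list's median (bar). Filled points passed an adjusted p of 0.05 by limma: 11 on ND and 78 on HFD, where the regulators of Slc2a4 transcription have the highest median (0.43) and the brakes the lowest (-0.28).

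The genes with the profile most like that of Slc2a4 over the 12 libraries were sought by the root mean square difference of centred log2 values. They were Reep6 (0.253), Snhg11 (0.276), Eepd1 (0.280), Klf15 (0.281) and Apcdd1 (0.292). For Irs1 they were Smkr-ps (0.157), Acvr1c (0.158), Sik2 (0.165), Aldh6a1 (0.195) and Sfxn1 (0.196). This is a likeness of levels in the same libraries, chosen by that likeness, and carries no test.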

How the data were processed

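RNA of eWAT was sequenced in 12 libraries, 3 per group, as assigned by their titles. The deposited table gives CPM per gene, per the file headers. Per the submitters' processing notes the tools were STAR 2.7.3a, featureCounts 2.0.0 and DESeq2 with mm10, whose roles are not said, and the use of strand in counting was not given in the sources used here. After subtraction of an offset of 0.01 read, 100% of values were whole reads within a tolerance of 0.05 read, which gave the depth of each library. The 3 rows without a symbol (at most 0.0679% of a library) were left out. Genes that reached a CPM of 0.5 in 3 or more libraries were tested on log2(CPM + 1) by limma 3.58.1 (R 4.3.3) with its trend option, in 1 fit of 4 group means with 8 residual degrees of freedom and Benjamini-Hochberg adjustment over all tested genes. The log scale understates changes of low genes. Replicates are called biological, and nothing more is said of litters or cages.

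The alternatives were TMM scaling, pseudocounts of 0.5 and 5, no filter, a CPM of at least 1 in 6 libraries, edgeR 4.0.16 and DESeq2 1.42.0 on the recovered reads, only the groups compared, replicate number as a block, and each library left out. The 9 genes, the lists and the marker lists were chosen with earlier results of these data known. Named beside the 9 are a fixed panel of 26 pathway genes (some of them not reported here), the called gene with the largest change in each direction in each list for TKO on each diet, and the 5 genes most like Slc2a4 and Irs1. Gene positions are from GENCODE M21, and transcript lengths from the listed accession (for Insr, the longest coding transcript). Promoters are from RefSeq (GRCm38.p6), where 7 of the 9 genes matched.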

Additional observations from a re-analysis of the deposited data

Results flagged for a closer look

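For 3 of the 9 genes the TKO effect differed between the diets by the interaction term of the limma fit, all 3 with a positive term, against 28.7% of all tested genes called and 9.94% called with a positive term. The TKO effect on HFD minus that on ND was 2.60 for Slc2a4 (adjusted p = 7.8e-06), 1.33 for Irs1 (0.015) and 0.52 for Akt2 (0.0029), on the log2 scale. Slc2a4 was lower in TKO on ND, a call lost with only the ND groups fitted and without several single ND libraries, and higher on HFD. Irs1 and Akt2 had called differences on HFD, and on ND changes of -0.23 and 0.04 that were not called. In every other setting tried the interaction stayed called for these 3 genes, with an adjusted p of at most 0.040 for Irs1 and 0.0098 for Akt2. All these settings used reads of the whole tissue. Per 1000 CPM of Adipoq, Akt2 was lower in HFD_TKO than in HFD_WT without overlap (106 ± 35.5 against 189 ± 10.8, SD). Per Plin1 the HFD groups overlapped for Akt2, and for Irs1 they overlapped with either gene. Slc2a4 stayed higher in HFD_TKO with either. No interaction was fitted on those scales, and the part of adipocyte share was not tested.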

How the results depend on the processing

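Of 1314 values recomputed for single genes, 1173 kept their direction and their side of the threshold, 54 lost a call, 52 gained one and 35 changed sign, none of them a called value. The number of the 9 genes called for TKO on ND was 0 with only the ND groups fitted (1.8% of all genes), and for HFD_TKO against ND_WT it was 2 with only those groups (23.1%). For TKO on HFD it was 7 with TMM scaling, by edgeR, by DESeq2 and with only the groups compared (46.9%, 47.1%, 47.5% and 49.3% of all genes). For HFD in WT it was 9 with TMM scaling, by edgeR and by DESeq2 (57.2%, 57% and 57.1%). For HFD in TKO it was 2 with TMM scaling, 2 by edgeR, 5 by DESeq2 and 1 with only the groups compared (18.4%, 18.4%, 21.6% and 17.1%). For the interaction it was 6 by DESeq2 (29.5%). With each library left out in turn the number called was 0 to 3 for TKO on ND, 6 to 7 for TKO on HFD, 6 to 8 for HFD in WT, 0 to 6 for HFD in TKO, 2 to 6 for HFD_TKO against ND_WT, 7 to 8 for HFD_WT against ND_TKO and 3 to 5 for the interaction. The share of all genes called then ran, in the same order, from 2.25% to 11.9%, 38.7% to 50.2% and 50.2% to 59.9%. For the remaining comparisons it ran from 11% to 27.6%, 23.9% to 41.2%, 50.3% to 60.4% and 22.3% to 32.4%.

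Sign changes outside the libraries left out were those of Pik3r1 for TKO on HFD (0.10 with TMM scaling, 0.12 by edgeR and 0.12 by DESeq2), Trip10 for TKO on HFD (0.0341 by edgeR and 0.0298 by DESeq2), Foxo1 for HFD in TKO (-0.0405 with TMM scaling, -0.016 by edgeR and -0.011 by DESeq2), and in the interaction Irs2 (0.0383 with TMM scaling, 0.10 by edgeR and 0.10 by DESeq2) and Pik3r1 (0.0219 by edgeR and 0.0229 by DESeq2). With a library left out in turn, uncalled values that changed sign ran from -0.308 to 0.0156 for TKO on ND (Insr), from -0.243 to 0.35 for TKO on ND and from -0.066 to 0.0315 for TKO on HFD and from -0.363 to 0.23 for the interaction (Pik3r1), from -0.208 to 0.0574 for TKO on HFD and from -0.233 to 0.0329 for HFD in TKO and from -0.107 to 0.0839 for HFD_WT against ND_TKO (Trip10), from -0.164 to 0.101 for HFD in TKO (Slc2a4), from -0.0564 to 0.212 for HFD in TKO (Foxo1), from -0.212 to 0.0222 for HFD_TKO against ND_WT (Tbc1d4), from -0.147 to 0.23 for the interaction (Irs2). The cause was not tested. Over all genes, calls for TKO on ND numbered 889, against 1395 by DESeq2, 280 with only the ND groups, and 349 to 1851 with a library left out. Calls for HFD in TKO numbered 3446, against 1709 without ND_TKO replicate 3 and 2214 without HFD_TKO replicate 3, and those for HFD_TKO against ND_WT 5472, against 3596 with only those groups.

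Same-numbered libraries did not stand out as pairs. Over 18 same-numbered pairs the correlation of deviations ran from -0.497 to 0.562, above 0.1 in 5, and 3 of 12 libraries correlated best with their own number. Pairs of unlike number reached similar values, such as 0.560 for ND_WT replicate 1 with HFD_TKO replicate 2. This comparison cannot show whether libraries shared a litter or a batch. With the replicate block 4 of the 9 genes were called in the interaction in place of 3, and the other counts of the 9 did not move (3 for TKO on ND, 6 for TKO on HFD). Each of the 9 genes had at least 281 reads in every library, and each group held 3 libraries. Counting error and the spread between libraries were not compared as limits.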
